A study of Oryctolagus cuniculus with 16 samples.

Results

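The 83 genes described here lie side by side on rabbit chromosome 12. They are all genes whose annotated start falls between 21800000 and 24200000, without 4 genes that start at 23346548, 23356122, 23361824 and 23371247. The files list 23669 genes in all, of which 1174 are on chromosome 12. The members were chosen by their start positions alone, and no expression value enters the rule. The stretch itself was proposed with earlier results of these data known, and which values led to it is not recorded, so that counts over the members are given as a description. From its gene order it is taken to be the major histocompatibility complex (MHC). The files carry Ensembl identifiers without gene names, so that this identity could not be checked, and genes are called here by their start in megabases (the 22.502 Mb gene).

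The libraries came from premature New Zealand rabbit kits with moderate-to-severe intraventricular haemorrhage, bleeding into the ventricles of the brain. All kits had the haemorrhage and all received an adenovirus into the ventricle. It carried PPARg, a lipid-sensing nuclear receptor, with green fluorescent protein under the CMV promoter (Ad-PPARg), or green fluorescent protein without PPARg (Ad-GFP, the vector control). The CMV promoter is active in many cell types, and the labels do not say which cells took up the virus. On day 7 the cerebral hemispheres were taken and both cell types were sorted: microglia, as cells positive for CD11b and low in CD45, and oligodendrocyte progenitor cells (OPC), as O4-positive cells. Their RNA was sequenced. There were 4 libraries in each of the 4 groups, from 10 animals, of which 6 gave both cell types. Without names, neither the PPARg gene nor the markers of the sorted cells could be looked up.

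In mammals the MHC is a dense stretch of genes of mixed function. It holds the class I and class II molecules that present peptides to T cells, the transporter and protease subunits that prepare those peptides, complement and cytokine genes, and many housekeeping genes with no immune role. Class I molecules are made by most cells, while class II molecules are largely limited to professional antigen-presenting cells. Microglia, the resident macrophages of the brain, can carry class II, whereas cells of the oligodendrocyte lineage carry little of it at rest.

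Totals were 6.24 to 17.6 M (mega) counts per library, and the 83 genes took 0.658 to 1.10% of them in microglia (mean 0.919 ± 0.165%, SD, n = 8) and 0.562 to 0.813% in OPC (0.707 ± 0.0734%, SD, n = 8). The 817 genes outside the region that were at least 16-fold higher in microglia took a mean of 24.1% of counts in the microglia libraries and 0.791% in the OPC libraries. The first part of the animal identifiers takes 6 values, 3 in each treatment, with none shared between treatments. Its meaning is not given in the labels, and any difference tied to it and the treatment cannot be told apart. Several libraries stood apart for members of the region. Microglia Ad-PPARg replicate 1 and microglia Ad-GFP replicate 1 were lowest in a group of abundant genes described below. Each was the only microglia library of its prefix, but so were microglia Ad-PPARg replicate 2 and microglia Ad-GFP replicate 4. OPC Ad-PPARg replicate 4 was far from its group for several members, and OPC Ad-PPARg replicate 1 moved the direction of many treatment differences in OPC. Values without these libraries are given beside several results below.

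The genes were spread over both strands, 39 on the plus and 44 on the minus strand. Their median annotated length was 1428 bases, against 1278 over all genes of the files. A single exon entry was listed for 13 of them, 7 of which were shorter than 300 bases. No count was recorded in any library for 2 genes. Together with these, 16 genes had too few counts to be tested between the cell types, with means of at most 0.633 CPM in microglia and 0.166 CPM in OPC, and 9 of the 16 had a single exon entry. CPM here are counts divided by the library total in M after scaling between libraries. Genes are ranked by level per kb of annotated length. Cuts such as 100 CPM, and other remarks that set the CPM of different genes side by side, do not allow for length. In microglia 20 genes had a mean above 100 CPM and 21 were below 1 CPM, and in OPC these numbers were 14 and 26.

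Levels per length covered several orders of magnitude. In both cell types the highest member was the 23.679 Mb gene (chromosome 12, 23679487 to 23682806, plus strand, 5 exon entries), at 1622 ± 285 CPM per kb in microglia and 645 ± 135 in OPC (SD, n = 8 each). In microglia it was followed by the 23.070 Mb gene at 890 ± 431 CPM per kb, the 23.254 Mb gene at 733 ± 393, the 22.748 Mb gene at 515 ± 80.9, the 23.278 Mb gene at 395 ± 194.8 and the 22.502 Mb gene at 333 ± 77.2. From the 23.070 Mb gene down to the 22.502 Mb gene each lay within the spread of its neighbour in that order. In OPC the 22.748 Mb gene, at 617 ± 111 CPM per kb, was within the spread of the first. Then came the 22.892 Mb gene at 203 ± 20.6, the 23.799 Mb gene at 138 ± 24.5, the 21.986 Mb gene at 99.0 ± 103 and the 23.497 Mb gene at 95.7 ± 4.97 CPM per kb. The 21.986 Mb gene overlapped in its spread with the genes before and after it, which did not overlap with each other. The 23.679 Mb and 22.748 Mb genes stood among the first 6 in both cell types. Without regard to length, the 6 members with the most CPM held 60.2% of the CPM of all members in microglia and 55.9% in OPC.

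The comparison of the 2 sorts, OPC minus microglia over all 16 libraries, showed a region in which blocks of genes leaned strongly to one or the other cell type. Of the 67 genes tested, 31 were higher in microglia and 14 were higher in OPC by edgeR's quasi-likelihood test with Benjamini-Hochberg adjustment over all genes at 0.05. The share higher in microglia was 46.3%, where 33.4% of all 14699 tested genes were called in that direction. The share higher in OPC was 20.9%, where 35.1% of all genes were. In both directions together 67.2% of the members passed, near the 68.5% of all genes. At least 4-fold, 17 members were higher in microglia (12.2% of all genes) and 6 in OPC (13.7% of all genes). The median log2 difference was -0.42 over the members and -0.01 over all genes. Upper-quartile scaling moved the median of all genes to 0.19. It gave 31 members higher in microglia, with 28.8% of all genes, and 25 higher in OPC, with 41.7% of all genes. In bulk RNA a gene expressed in fewer of the sorted cells and a gene at a lower level in each of them cannot be told apart.

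**Figure D1:**
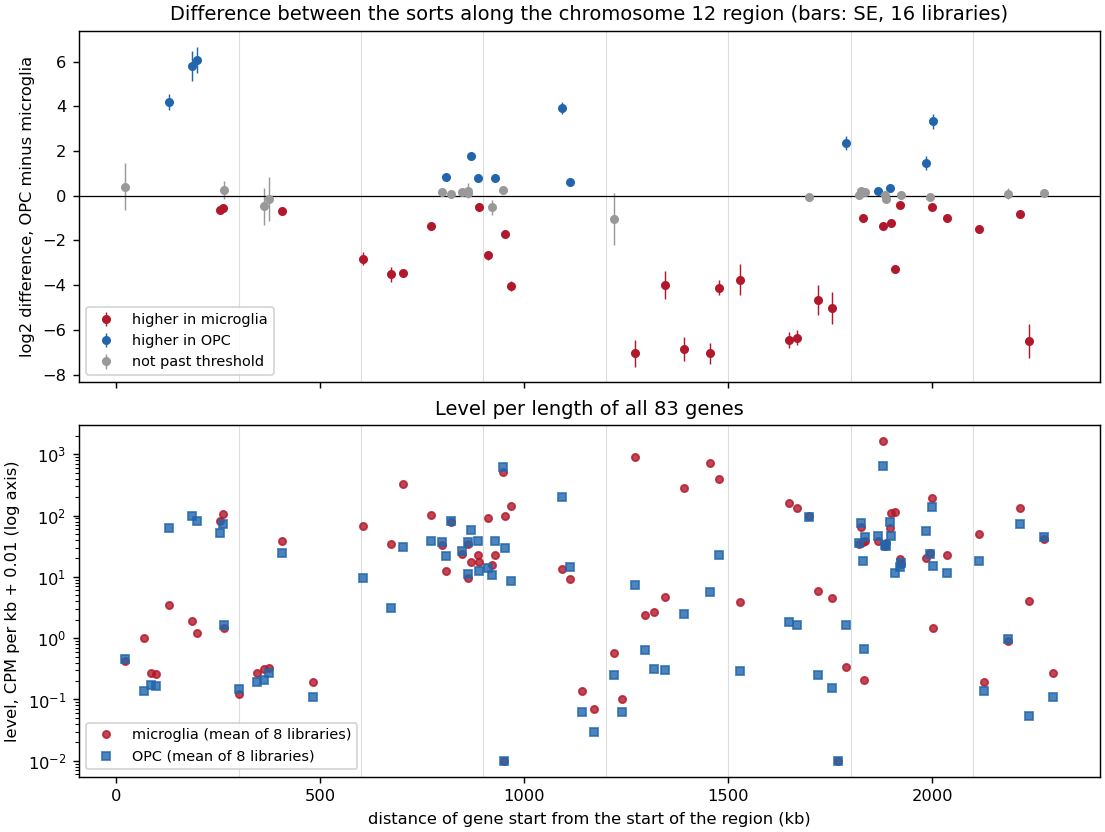
Top: log2 difference between the cell types (OPC minus microglia, bars are the SE from the fit of 16 libraries) of the 67 tested genes against the distance of each gene's start from the start of the region in kb. Bottom: mean level per length of all 83 genes in each cell type (8 libraries each, log axis, 0.01 added). Microglia-high genes right of the middle reach differences of -7.06, and the OPC-high genes at the left end reach 6.07.

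By position, the lean to microglia was concentrated in the stretch from 23 to 23.6 Mb. In windows of 300 kb, the median log2 difference was -5.49 from 23 to 23.3 Mb, where 5 of 6 tested genes were higher in microglia, and -4.66 from 23.3 to 23.6 Mb, where 5 of 7 were higher in microglia and 1 in OPC. Outside these windows the medians lay between -0.83 and 0.41. From 22.4 to 22.7 Mb 5 of 13 tested genes were higher in microglia and 3 in OPC, and from 22.7 to 23 Mb 3 of 8 were higher in each. In the gene-dense window from 23.6 to 23.9 Mb 7 of 18 were higher in microglia and 4 in OPC, with a median of -0.015. Summed over the genes of the 23 to 23.3 Mb window, microglia held 3641 ± 1800 CPM and OPC 68.0 ± 19.1 (SD, n = 8 each). For the window from 22.7 to 23 Mb the sums were 1986 ± 199 CPM in microglia and 2791 ± 347 in OPC.

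Neighbours often leaned the same way. Of 31 pairs of adjacent tested genes that both passed, 23 had the same direction (74.2%), where 58.2% of 6680 such pairs over the genome did. The longest run held 8 genes, from 23.070 to 23.468 Mb, all higher in microglia. The 4 left-out genes lie inside it, and they too were higher in microglia, with log2 differences of -1.76, -4.78, -1.72 and -3.49. A run of 5 genes higher in microglia went from 22.205 to 22.571 Mb, and a run of 3 genes higher in OPC from 21.931 to 21.999 Mb. From 23.666 to 23.803 Mb the direction alternated among the called genes, with 7 runs of 1 to 3 genes.

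Within the long run, 6 genes combined a mean above 100 CPM in microglia with a call for microglia. They are at 23.070, 23.191, 23.254, 23.278, 23.450 and 23.468 Mb, and as a group they were chosen after their values were seen. The 23.070 Mb gene (ENSOCUG00000009103, 23070344 to 23074998, plus strand, 5 exon entries) had 398, 1182, 1520.4 and 1000.4 CPM in the microglia Ad-PPARg libraries and 428, 1760.2, 1754 and 883 in the microglia Ad-GFP libraries, in order of replicate. In the OPC Ad-PPARg libraries it had 1.43, 20.6, 6.24 and 21.5 CPM and in the OPC Ad-GFP libraries 5.86, 4.27, 4.91 and 8.23. Every microglia library was above every OPC library, and the lowest microglia level came in replicate 1 of each treatment. The log2 difference was -7.06 ± 0.58 (SE), a 133-fold lower level in OPC with an adjusted p of 1.66e-08.

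The 23.254 Mb gene (ENSOCUG00000002480, 23254067 to 23259329, plus strand, 9 exon entries) ran in parallel. Its microglia levels were 458, 814, 1114 and 859.7 CPM after Ad-PPARg and 395, 1801, 1688 and 698 after Ad-GFP, and its OPC levels were 2.91, 17.4, 4.87 and 11.0 CPM after Ad-PPARg and 5.97, 5.95, 4.82 and 7.60 after Ad-GFP. Again no OPC library came near a microglia library, and replicate 1 was lowest in both microglia groups. The log2 difference was -7.05 ± 0.47 (SE, adjusted p 1.26e-09).

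Between them, the 23.191 Mb gene (23191170 to 23198819, minus strand) went from 309 to 1342 CPM over the microglia libraries with a median of 727, and from 1.25 to 16.4 CPM with a median of 5.71 over the OPC libraries, a log2 difference of -6.86 ± 0.54. The 23.450 Mb gene (23449679 to 23456764, minus strand) had 137 to 347 CPM in microglia (median 233) and 0.891 to 5.48 in OPC (median 2.59), a difference of -6.46 ± 0.35. For the 23.468 Mb gene (23467797 to 23472753, minus strand) the levels were 65.9 to 207 CPM in microglia (median 125) and 0.831 to 3.49 in OPC (median 1.54), a difference of -6.35 ± 0.34. All adjusted p were 8.37e-09 or lower for these 3 genes.

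The sixth, the 23.278 Mb gene (23277810 to 23287878, minus strand, 6 exon entries), differed from the other 5 in its higher level in OPC. Its OPC levels were 52.8, 52.8, 43.5 and 27.0 CPM after Ad-PPARg and 34.2, 34.4, 57.2 and 42.2 after Ad-GFP. Its microglia levels ranged from 284 to 1248 CPM with a median of 698. The log2 difference of -4.12 ± 0.33 (adjusted p 1.36e-08) was the smallest of the 6.

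Summed over the 6 genes, microglia held 1653, 3867, 5051 and 3497 CPM after Ad-PPARg and 1723, 6544, 6583 and 3167 after Ad-GFP. The sums spanned 3.06-fold within the first group and 3.82-fold within the second, and the groups overlapped over most of their ranges. The 6 genes took 19.8 to 50.0% of all counts on the members in microglia. In OPC the sums were 60.2, 116, 62.6 and 75.1 CPM after Ad-PPARg and 57.1, 53.1, 75.4 and 70.1 after Ad-GFP, 0.872 to 1.95% of the members' counts. In these scaled CPM the OPC mean was 1.78% of the microglia mean. The 817 microglia-high genes outside the region were picked in these same libraries for being at least 16-fold higher in microglia. Their share of counts, taken without scaling between libraries, was in OPC 3.28% of that in microglia, so that the percentages are not on one scale. The OPC library highest in the 6 genes, Ad-PPARg replicate 2, was also highest in that share, at 1.17%. How much of the OPC signal of these genes came from microglia in the O4 sort was not tested. The 2 microglia libraries lowest in the 6 genes had 6.24 and 13.5 M counts and 21.3% and 26.6% of their counts on the microglia-high genes, the lowest and the highest of the 8 libraries.

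**Figure D2:**
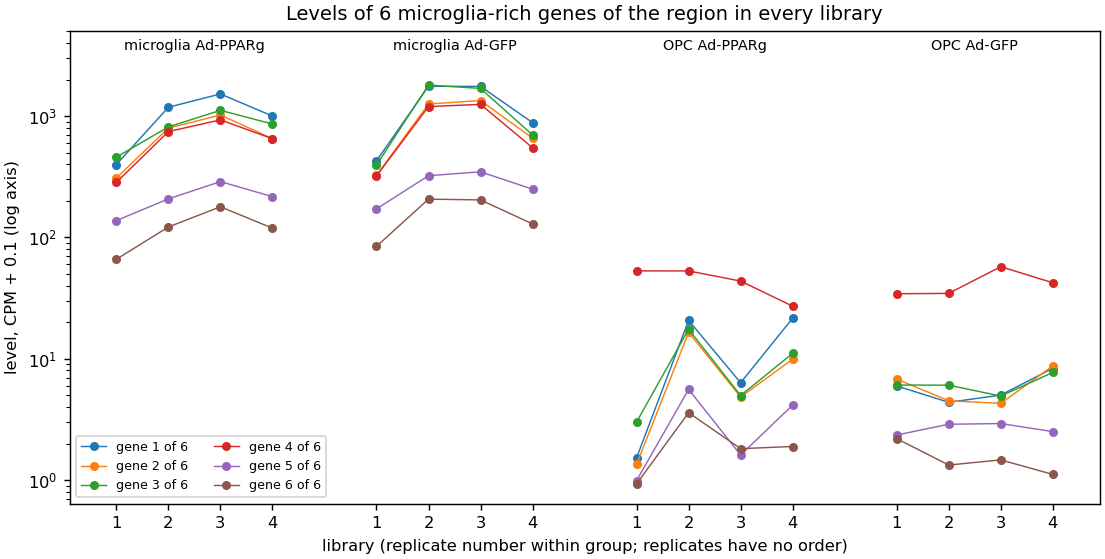
Level (CPM, log axis, 0.1 added) of the 6 abundant microglia-high genes in each of the 16 libraries, by group and replicate number. Genes 1 to 6 are in chromosome order (23.070, 23.191, 23.254, 23.278, 23.450 and 23.468 Mb), and the lines join the libraries of a group only to guide the eye. In microglia all 6 vary together over the libraries, while gene 4 keeps 27.0 to 57.2 CPM in OPC.

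Other microglia-high genes of the stretch were far less abundant. The 23.519 Mb gene (23519395 to 23550367, minus strand) had 3.37 to 31.2 CPM in microglia (median 19.0) and 0 to 2.64 in OPC (median 0.399), a log2 difference of -4.66 ± 0.68. The 23.554 Mb gene (23554066 to 23562038, plus strand) had 1.54 to 16.9 CPM in microglia (median 6.34) and 0 to 0.819 in OPC (median 0.219), a difference of -5.03 ± 0.71. Both followed the 6 abundant genes over the microglia libraries, with r of 0.90 to 0.94 for the first and 0.89 to 0.97 for the second. At the right end, apart from this stretch, the 24.036 Mb gene (24036295 to 24055968, minus strand) had a log2 difference of -6.51 ± 0.76 (adjusted p 1.05e-06). Its microglia levels were 3.89, 34.6, 3.96 and 3.10 CPM after Ad-PPARg and 10.0, 29.9, 33.4 and 7.29 after Ad-GFP. The 3 highest values came from the microglia library of prefix K196 and both of prefix K195. In OPC it had at most 0.366 CPM, also in the libraries of those prefixes. Without microglia Ad-PPARg replicate 2 its difference was -5.66.

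To the left, the run of 5 genes from 22.205 to 22.571 Mb held 1 gene that is also among the highest per length in microglia. The 22.502 Mb gene (22502153 to 22549253, plus strand, 18 exon entries, 4916 bases) had 1491, 2069, 2179.9 and 1892 CPM in the microglia Ad-PPARg libraries and 1044, 1502, 1542 and 1388 in the microglia Ad-GFP libraries. In OPC it had 195.5, 224, 155 and 125 CPM after Ad-PPARg and 123, 124, 115 and 133 after Ad-GFP. The cell types did not overlap, with a log2 difference of -3.47 ± 0.15 (SE, adjusted p 1.30e-11), the lowest adjusted p of the region. Unlike the 6 genes further right, it kept 149 ± 39.8 CPM in OPC (SD, n = 8). Its left neighbours at 22.405 and 22.475 Mb, picked out after their values were seen, differed by -2.81 ± 0.30 and -3.51 ± 0.34.

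Among the most abundant genes per length, 2 were higher in microglia by smaller factors. The 23.679 Mb gene was 2.52-fold higher in microglia (533 to 950 CPM, median 726) than in OPC (228 to 423 CPM, median 273), a log2 difference of -1.33 ± 0.15 with an adjusted p of 6.43e-07. The 23.799 Mb gene (23799364 to 23800728, minus strand, 6 exon entries) was 1.40-fold higher in microglia (99.5 to 153 CPM against 77.7 to 125), a difference of -0.49 ± 0.12 with an adjusted p of 0.00194. When only the Ad-PPARg groups were contrasted, in the fit of all 16 libraries, that difference was -0.33 with an adjusted p of 0.114.

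The genes higher in OPC gathered at the left end of the region and in scattered places beyond. The 21.999 Mb gene (ENSOCUG00000015627, 21999294 to 22033322, minus strand, 5 exon entries) had 254, 72.6, 97.5 and 666 CPM in the OPC Ad-PPARg libraries and 198.3, 90.2, 186 and 138 in the OPC Ad-GFP libraries. Its microglia levels were 4.07, 1.37, 7.35 and 2.90 CPM after Ad-PPARg and 0.289, 3.41, 3.27 and 2.31 after Ad-GFP. Every OPC library was above every microglia library, and OPC Ad-PPARg replicate 4 stood far above the other OPC libraries. The log2 difference was 6.07 ± 0.58 (SE, adjusted p 9.01e-08), and 5.56 without that library. Its neighbour, the 21.986 Mb gene (ENSOCUG00000015616, 21985995 to 21998300, plus strand, 8 exon entries), followed it closely. It had 73.2, 25.2, 40.5 and 319 CPM in the OPC Ad-PPARg libraries, 98.9, 33.1, 86.3 and 58.9 in the OPC Ad-GFP libraries and 0.161 to 4.60 CPM in microglia. The difference was 5.79 ± 0.66, and 5.11 without OPC Ad-PPARg replicate 4. The third gene of this run, at 21.931 Mb (21930629 to 21959797, minus strand, 22 exon entries), did not share the high value of that library. It had 138 CPM there, the lowest of its OPC levels of 138 to 235 (median 186), against 1.44 to 19.1 CPM in microglia (median 9.99), a difference of 4.18 ± 0.35.

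The most abundant of the OPC-high genes was the 22.892 Mb gene (22892112 to 22905659, plus strand, 18 exon entries). It had 852, 783, 778 and 809.8 CPM in the OPC Ad-PPARg libraries and 766, 606, 684 and 754 in the OPC Ad-GFP libraries, against 18.1 to 97.7 CPM in microglia with a median of 48.0. The cell types were well apart, with a log2 difference of 3.92 ± 0.27 (adjusted p 1.71e-09). Its right neighbour at 22.911 Mb was also higher in OPC, and was followed by the microglia-high stretch. The 23.803 Mb gene (23802914 to 23832613, plus strand, 19 exon entries) had 20.7 to 83.6 CPM in OPC (median 65.2) and 1.54 to 9.28 in microglia (median 5.64), a difference of 3.33 ± 0.32. The 23.589 Mb gene (23588981 to 23618320, minus strand), whose 65 exon entries were the most of the region, was low in both but higher in OPC, with 7.70 to 18.8 CPM against 0.77 to 5.51, a difference of 2.37 ± 0.31. It is the OPC-high gene of the 23.3 to 23.6 Mb window.

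Smaller differences were seen for the remaining 2 named OPC-high genes. The 22.669 Mb gene (22669367 to 22685833, plus strand) had 68.8 to 97.4 CPM in OPC and 21.5 to 33.8 in microglia without overlap, a log2 difference of 1.77 ± 0.11 (adjusted p 3.40e-10). For the 23.785 Mb gene (23784925 to 23792851, plus strand) the cell types overlapped. Its OPC levels were 182, 118, 108 and 21.3 CPM after Ad-PPARg and 89.9, 113, 129 and 142 after Ad-GFP, beside 30.6 to 73.5 CPM in microglia, and OPC Ad-PPARg replicate 4 lay below every microglia library. The difference was 1.47 ± 0.30 (adjusted p 0.000405), and 1.62 without that library.

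The other 22 tested genes did not pass, with log2 differences from -1.04 to 0.41. They include 2 of the most abundant genes per length in OPC. The 22.748 Mb gene (22748030 to 22752315, plus strand, 4 exon entries) had 1184 to 1840.3 CPM in microglia (median 1290.4) and 1007 to 2055 CPM in OPC (median 1659). The difference of 0.26 ± 0.14 had an adjusted p of 0.0988. It passed, higher in OPC, under 4 alternatives. With the animal as a block, fitted only in the 6 animals that gave both cell types, the difference was 0.38 with an adjusted p of 0.0288. That fit also left out, among others, microglia Ad-GFP replicate 1 and OPC Ad-PPARg replicate 4. Under upper-quartile scaling the difference was 0.47 with an adjusted p of 0.00376. Without microglia Ad-GFP replicate 1 it was 0.33 with an adjusted p of 0.0486, and without OPC Ad-PPARg replicate 4, its lowest OPC library, it was 0.33 with 0.00874. The 23.497 Mb gene (23497495 to 23501895, plus strand, 7 exon entries) had 97.7 to 154 CPM in microglia and 115 to 137 in OPC, a difference of -0.04 ± 0.09 (adjusted p 0.717). It lies directly between microglia-high genes at 23.468 and 23.519 Mb.

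Treatment was compared within each cell type, Ad-PPARg minus Ad-GFP, 4 against 4 libraries, the comparison the study was set up for. In microglia 61 members were tested and 0 passed the adjusted threshold, as for 0.0% of all 13041 genes tested, and the lowest adjusted p among the members was 0.409. At an unadjusted p under 0.05 there were 7 members, 4 higher and 3 lower after Ad-PPARg. That is 11.5% of the members, beside 11.4% of all genes (4.87% higher and 6.54% lower). The count was 2 to 18 without 1 library in turn. It rose to 18 when Ad-GFP replicate 4 was left out, and leaving out replicates 3 or 4 of Ad-PPARg gave 2 and 4, and replicates 2 or 3 of Ad-GFP 3 and 4. Summed per identifier prefix it was 2. The shares of all genes in these settings are not given here, so these counts are not read as a trait of the members. The direction was split evenly, with 30 positive and 31 negative differences and a median log2 difference of -0.0015, against 0.027 over all genes. DESeq2 called 1 of 81 members, the 22.571 Mb gene. The share of all genes that DESeq2 called is not given here, so this call is not read as a trait of the region.

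**Figure D3:**
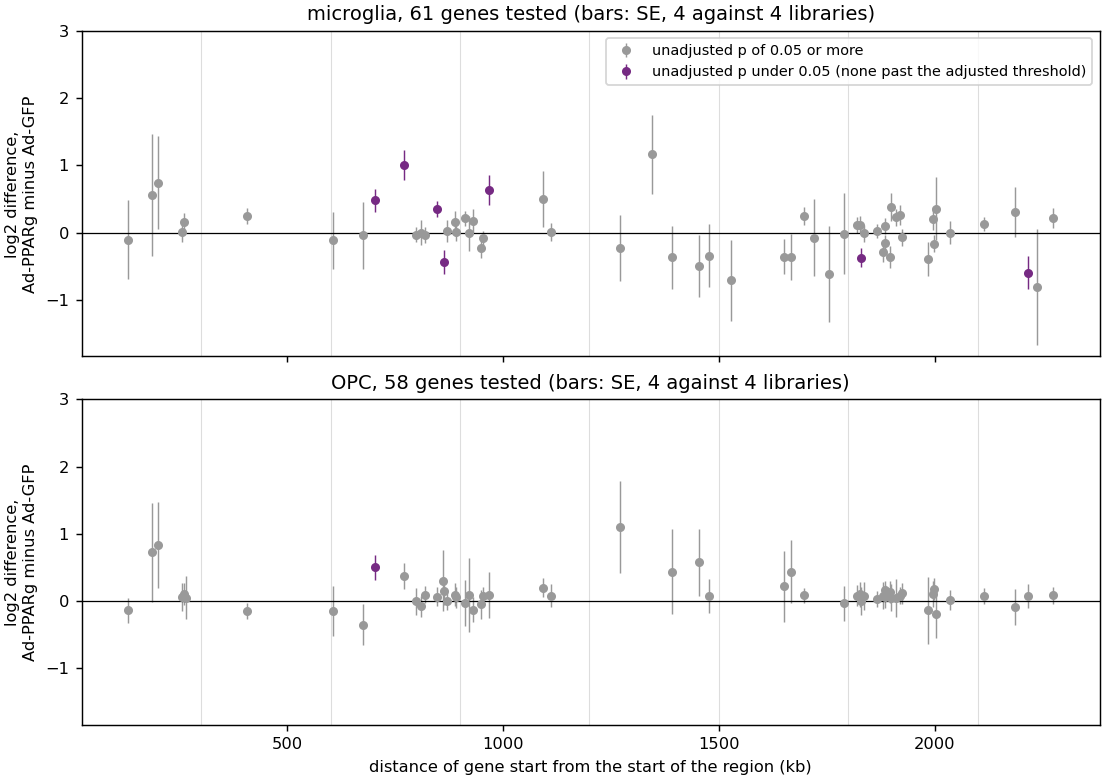
Log2 difference between the treatments (Ad-PPARg minus Ad-GFP, bars are the SE from fits of 4 against 4 libraries) against the distance of each gene's start from the start of the region in kb, for the 61 genes tested in microglia (top) and the 58 tested in OPC (bottom). Genes with an unadjusted p under 0.05 are coloured, 7 in microglia and 1 in OPC, and 0 genes passed the adjusted threshold in either.

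The lowest p in microglia belonged to the 22.571 Mb gene (22570724 to 22576104, plus strand, 5 exon entries). Its levels were 126, 132, 162 and 142 CPM in the Ad-PPARg libraries and 71.1, 50.0, 53.9 and 106 CPM in the Ad-GFP libraries. Each Ad-PPARg library was above each Ad-GFP library, which was so for 1 of the 61 members (Ad-PPARg above in 1.85% of all genes, below in 2.26%, either in 4.11%). The log2 difference was 1.01 ± 0.22 (SE), with an unadjusted p of 0.00125 and an adjusted p of 0.409 in edgeR, and an adjusted p of 0.00912 in DESeq2. Leaving out 1 library in turn gave differences of 0.87 to 1.27, and summing the counts per identifier prefix gave 0.85 with an adjusted p of 0.861.

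Its left neighbour, the 22.502 Mb gene, had means of 1908 ± 302 CPM (Ad-PPARg) and 1369 ± 226 CPM (Ad-GFP) in microglia (SD, n = 4 each). The ranges overlapped, since Ad-PPARg replicate 1 at 1491 CPM was below 2 of the Ad-GFP libraries. The log2 difference was 0.48 ± 0.17 (unadjusted p 0.0183, adjusted p 0.418). The 22.646 Mb gene (22646412 to 22662353, minus strand) had 78.0 ± 6.82 CPM against 61.1 ± 7.37, a difference of 0.36 ± 0.12 (unadjusted p 0.0134, adjusted p 0.416). For the 22.767 Mb gene (22766703 to 22767292, minus strand) the levels were 58.7, 55.9, 108 and 100.3 CPM against 52.9, 43.2, 52.6 and 60.1, a difference of 0.63 ± 0.23 (unadjusted p 0.0188, adjusted p 0.418), and the high values are replicates 3 and 4, both of prefix K197. The 23.630 Mb gene (23629720 to 23631641, plus strand) had 26.6 ± 1.54 CPM after Ad-PPARg against 34.4 ± 5.89, a difference of -0.37 ± 0.14 (unadjusted p 0.0249, adjusted p 0.421). For the 6 abundant genes of the long microglia-high run the differences were -0.23 to -0.50 with SE of 0.26 to 0.49.

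In OPC 58 members were tested and 0 passed (0.0% of all 13492 genes), with a lowest adjusted p of 0.99989, and DESeq2 called 0 as well. A single member had an unadjusted p under 0.05, 1.72% of the members beside 1.23% of all genes (0.763% higher and 0.467% lower). There were 4 without Ad-PPARg replicate 4, and 0 without Ad-PPARg replicate 2, Ad-GFP replicate 1 or Ad-GFP replicate 3. Shares of all genes without these libraries are not given here. The single member of the main fit was again the 22.502 Mb gene, with 175 ± 43.7 CPM (Ad-PPARg) and 124 ± 7.29 CPM (Ad-GFP, SD, n = 4 each). Its log2 difference was 0.50 ± 0.19 (unadjusted p 0.0243, adjusted p 0.99989). OPC Ad-PPARg replicate 4, at 125 CPM, lay within the Ad-GFP range of 115 to 133, and the other 3 Ad-PPARg libraries lay above it. The 22.571 Mb gene came second, with 53.9, 47.3, 45.7 and 27.9 CPM after Ad-PPARg and 31.8, 34.0, 32.3 and 37.4 after Ad-GFP, a difference of 0.37 ± 0.20 (unadjusted p 0.0952). Here too 3 Ad-PPARg libraries were above all Ad-GFP libraries, and replicate 4 was below them.

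The next genes in OPC had higher p. The 23.070 Mb gene, at 12.4 ± 10.1 CPM against 5.82 ± 1.74, differed by 1.10 ± 0.68 (unadjusted p 0.141), with Ad-PPARg replicate 1 the lowest and replicates 2 and 4 the highest of the 8 libraries. The 22.892 Mb gene was the 1 member whose OPC groups did not overlap (Ad-PPARg above in 0.682% of all genes, below in 0.563%, either in 1.25%), with a difference of 0.20 ± 0.14 (unadjusted p 0.182). The 21.999 Mb gene differed by 0.83 ± 0.63 (unadjusted p 0.221), and by -0.11 without OPC Ad-PPARg replicate 4.

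Differences in OPC were positive for 43 of the 58 members (74.1%), where 57.5% of all genes were positive, with a median log2 difference of 0.074 against 0.032. The number of positive members depended on single libraries. Without OPC Ad-PPARg replicate 1, 29 of 60 tested members were positive, and without OPC Ad-PPARg replicate 4, 48 of 58 were. The shares of all genes without these libraries are not given here. The median SE of a member's difference was 0.20 on the log2 scale in OPC and 0.17 in microglia.

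**Figure D4:**
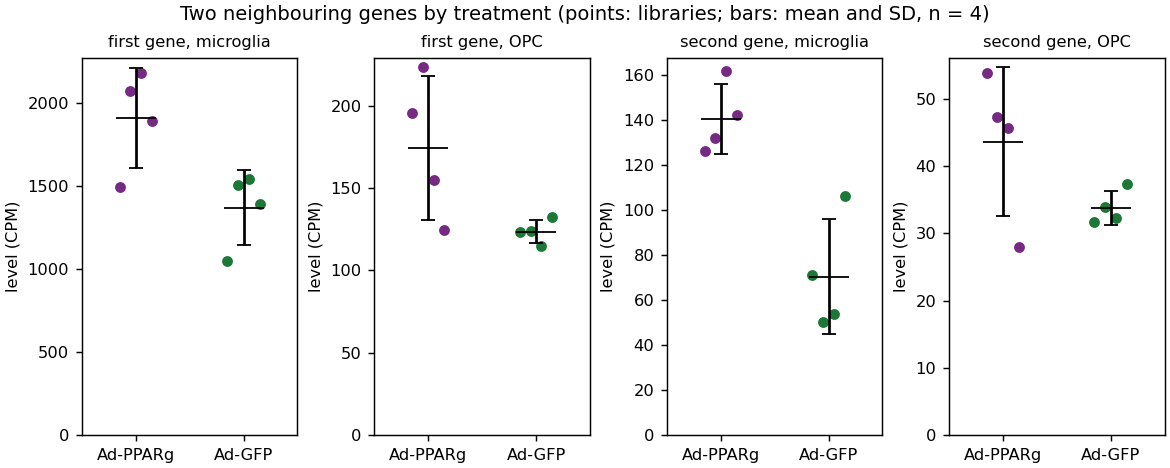
Level (CPM) of the 22.502 Mb gene (first gene) and the 22.571 Mb gene (second gene) in microglia and OPC by treatment. Points are libraries, and the bars are the mean and SD of 4 libraries. In microglia the second gene's Ad-PPARg libraries (126 to 162 CPM) lie above its Ad-GFP libraries (50.0 to 106 CPM), and in OPC 1 Ad-PPARg library of each gene lies within or below the Ad-GFP range.

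The difference between the treatment effects of the cell types, tested over all 16 libraries, passed for 0 of 67 members (0.0% of all 14699 genes), with a lowest adjusted p of 0.997, and DESeq2 called 0 as well. An unadjusted p under 0.05 was found for 2 members, 2.99% beside 2.73% of all genes. For both members the Ad-PPARg minus Ad-GFP difference was lower in OPC than in microglia, as for 1.53% of all genes. In 1.2% of all genes it was higher in OPC. The count of members at that p was 0 to 6 without 1 library in turn, with 6 without microglia Ad-GFP replicate 4. Shares of all genes without a library are not given here. The 22.205 Mb gene (22205381 to 22215857, minus strand) had 70.4 ± 3.58 CPM after Ad-PPARg and 59.5 ± 9.40 after Ad-GFP in microglia, and 38.8 ± 2.77 and 43.1 ± 3.40 in OPC. Its effect in OPC minus that in microglia was -0.43 ± 0.18 on the log2 scale (unadjusted p 0.0305). For the 22.571 Mb gene it was -0.68 ± 0.31 (unadjusted p 0.0428). The third in order, the 22.663 Mb gene (22663230 to 22668796, plus strand), had 21.9 ± 4.59 CPM after Ad-PPARg against 29.6 ± 4.72 in microglia and 29.3 ± 8.69 against 26.6 ± 1.90 in OPC, a difference of 0.57 ± 0.28 (unadjusted p 0.0625). For the 22.502 Mb gene the difference of effects was -0.02 ± 0.28 (unadjusted p 0.931). Of 56 members tested in both cell types, 32 had the same sign in both. The share of all genes with the same sign is not given here, so this count is not read as a trait of the members.

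By position, the treatment differences in microglia had medians between 0.0064 and 0.25 in the windows outside 23 to 23.6 Mb. In the window from 23 to 23.3 Mb the median was -0.35, with 1 of 5 tested genes positive, and from 23.3 to 23.6 Mb it was -0.36, with 1 of 7 positive. Without microglia Ad-PPARg replicate 1 these medians were -0.098 and -0.20, and without microglia Ad-GFP replicate 1 they were -0.56 and -0.52. These are the windows that hold the co-varying genes, whose libraries spread by more than 3-fold within each treatment, so that the genes are not separate observations. In OPC the medians of the same windows were 0.50, with 4 of 4 positive, and 0.15, with 3 of 4 positive. Without OPC Ad-PPARg replicate 4 these were 0.39 and 0.12, and without OPC Ad-PPARg replicate 1 they were 0.87 and 0.11. Elsewhere the medians lay between -0.15 and 0.080. The OPC window from 23.6 to 23.9 Mb had 15 of 18 positive differences with a median of 0.073, but 6 of 18 and -0.014 without OPC Ad-PPARg replicate 1, and 17 of 18 and 0.19 without OPC Ad-PPARg replicate 4. In microglia 9 of the 18 were positive.

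Co-variation was described by Pearson's r between genes over the 8 libraries of a cell type, after the mean of each group was taken from the log2 CPM. Points in such a correlation share library, animal and depth, and no test was made. In microglia the 6 abundant genes formed a tight block. Their 15 pairs had a median r of 0.978 (0.940 to 0.997). Without the 2 lowest libraries it was 0.950 (0.855 to 0.996), and without each library in turn it was 0.962 to 0.991. The 55 other tested members had a median r of -0.163 with the mean of the 6 genes, from -0.861 to 0.962. In OPC the same 15 pairs had a median r of 0.755, from -0.391 to 0.972, and 0.615 without OPC Ad-PPARg replicate 2. The 23.278 Mb gene ran apart from the other 5 there, with r of -0.39 to -0.10.

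Not every gene within the stretch belonged to the block. The 23.145 Mb gene, singled out after its values were seen, lies between the 23.070 and 23.191 Mb genes and was also higher in microglia, by a log2 difference of -3.99 ± 0.64. Its microglia levels were 6.19, 12.0, 17.4 and 14.6 CPM after Ad-PPARg and 5.29, 2.95, 1.71 and 13.5 after Ad-GFP. The lowest 2 were those of Ad-GFP replicates 2 and 3, which were highest in the 6 abundant genes. Its r with these was -0.32 to -0.05. The 23.329 Mb gene, on the other side and picked out in the same way, had r of 0.67 to 0.80 with them. Genes outside the stretch could follow too, though the median r of the 55 other members was -0.163. The OPC-high 22.892 Mb gene, also picked out, had 18.1, 67.7, 51.1 and 29.5 CPM in microglia Ad-GFP libraries. Like the 6 genes' sums, it was lowest there in replicate 1 and highest in replicates 2 and 3. After Ad-PPARg it had 51.8, 45.0, 97.7 and 40.8 CPM, highest in replicate 3 like the sums, but lowest in replicate 4.

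**Figure D5:**
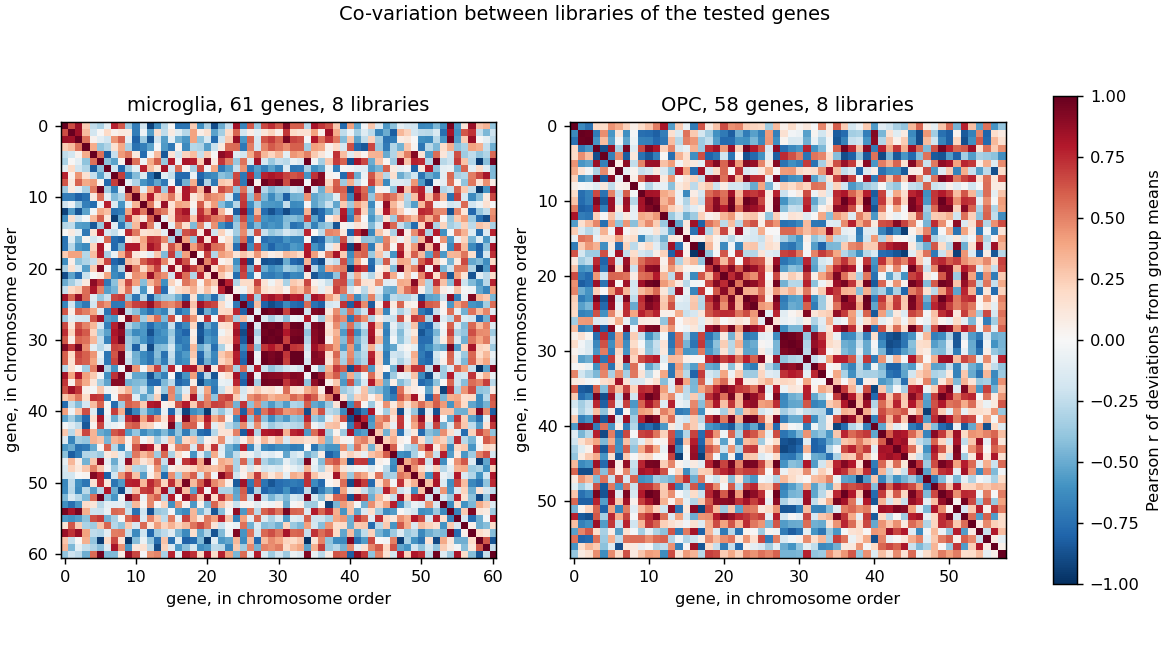
Pearson's r over 8 libraries (deviations from group means of log2 CPM) between all tested members of the region in chromosome order, 61 genes in microglia (left) and 58 in OPC (right). The red square in the middle of the microglia panel is the block of abundant genes between 23.070 and 23.468 Mb, whose pairs have r of 0.940 or more.

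Over all 60 pairs of adjacent tested members in microglia the median r was 0.25, where it was 0.107 over 12341 adjacent pairs of the genome. All 60 pairs had starts up to 200 kb apart, and the 9475 such pairs of the genome had a median r of 0.125. For the members the median r was 0.125 without Ad-GFP replicate 2 and 0.178 under upper-quartile scaling. No genome value was worked out for these settings. In the main setting 2.41% of all genome pairs (2.49% of those up to 200 kb apart) were above 0.9, and 3 member pairs (5.0%). These were the 23.450 and 23.468 Mb genes (r = 0.993, rho = 0.952, and 0.973 without the 2 libraries farthest from the median), the 23.254 and 23.278 Mb genes (0.974, 0.952 and 0.965) and the 23.191 and 23.254 Mb genes (0.968, 0.952 and 0.937). The lowest values belonged to the 23.630 and 23.636 Mb genes (-0.885, rho -0.810, and -0.665 without the 2 libraries), the 22.911 and 23.070 Mb genes (-0.809, -0.857 and -0.720) and the 22.892 and 22.911 Mb genes (-0.717, -0.548 and -0.561). Outside the block, then, neighbours moved in either direction. By window, the median r over all pairs was 0.963 from 23 to 23.3 Mb and 0.557 from 23.3 to 23.6 Mb (0.320 without microglia Ad-GFP replicate 1, 0.675 without microglia Ad-PPARg replicate 1). Over 656 windows of the same length with at least 5 tested genes the median was 0.0614 (quartiles -0.0662 and 0.199), and the other windows of the region lay between -0.0909 and 0.341.

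In OPC 12772 adjacent pairs of the genome had a median r of 0.156, and the 9796 of them with starts up to 200 kb apart had 0.186. The median r of the 57 adjacent member pairs, all of them that close, was 0.083. It was higher under several alternatives, at 0.0852 to 0.314 without 1 library in turn (0.314 without OPC Ad-PPARg replicate 2, 0.224 without replicate 3 and 0.177 without OPC Ad-GFP replicate 4), 0.312 under upper-quartile scaling and 0.373 for members of at least 5 CPM. The genome values of 0.156 and 0.186 belong to the main setting. None was worked out for these alternatives, so the alternatives are not set against the genome. In the OPC libraries 5.13% of all genome pairs (5.38% of those up to 200 kb apart) were above 0.9, and 5 member pairs (8.77%). The highest were the 21.986 and 21.999 Mb genes (r = 0.982, rho = 0.905, and 0.932 without the 2 libraries farthest from the median), which share the high value of OPC Ad-PPARg replicate 4, the 23.070 and 23.191 Mb genes (0.972, 0.905 and 0.982) and the 23.191 and 23.254 Mb genes (0.962, 0.929 and 0.860). The lowest were the 22.663 and 22.669 Mb genes (-0.983, rho -0.976, and -0.912 without the 2 libraries), whose starts are 6.14 kb apart, the 22.055 and 22.061 Mb genes (-0.883, -0.524 and -0.359) and the 23.721 and 23.724 Mb genes (-0.715, -0.714 and -0.656). For the first of these, OPC Ad-PPARg replicate 1 was highest in the 22.663 Mb gene, at 41.6 CPM, and lowest in the 22.669 Mb gene, at 68.8 CPM. By window, the median r was -0.534 at the left end (21.8 to 22.1 Mb), 0.547 from 22.7 to 23 Mb and 0.447 from 23.6 to 23.9 Mb, where 680 windows of the genome had a median of 0.106 (quartiles -0.0626 and 0.299). These window values depended on single libraries. Without OPC Ad-PPARg replicate 4 they were -0.116, 0.276 and 0.246, and without OPC Ad-PPARg replicate 1 they were -0.550, 0.822 and 0.221.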

How the data were processed

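Each library has a deposited file of raw read counts over genes, with exon positions, strand and length, per the file headers. Subread 1.5.2, STAR 2.5.2b and bcl2fastq 2.17 appear in the submitters' processing notes without their roles. For the genome build, the annotation release and the strand setting no statement was found in the labels or headers. Reads of overlapping or near-identical genes, frequent in such regions, may therefore be split between them or lost. Of the identifiers, 0 matched the 38822 genes of the reference table (mOryCun1.1), so that names, sequences and the named gene and marker lists could not be used. Exon entries count annotated exon records.

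Treatment was tested in 8 libraries per cell type, and the sorts and the difference of effects in 16, with edgeR 4.0.16 (R 4.3.3, quasi-likelihood, robust, TMM scaling, default low-count filter) and Benjamini-Hochberg adjustment over all genes at 0.05. SE is the log2 difference over the root of F. Levels in CPM use TMM factors found within each cell type. These were multiplied by the geometric mean of that cell type's factors over all 16 libraries. Log2 CPM for correlations had a prior count of 2. Alternatives used DESeq2 1.42.0, limma 3.58.1 and other scalings, filters and left-out libraries. Totals of 6.24 to 17.6 M (mega) counts give precise values for abundant genes, while levels below 1 CPM rest on few counts.

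Members and lists were chosen with earlier results of these data known. Members described singly are the 8 with the largest called difference between the sorts in each direction, the 6 highest per length in each cell type, the 5 lowest in p per treatment comparison, the 3 lowest for the difference of effects, and the 3 highest and 3 lowest neighbour pairs per cell type. Identifiers are printed for 2 genes per direction. Replicates of a group are different animals by the identifiers in the labels. In the 6 animals with both cell types, deviations from group means correlated at 0.0962 to 0.286 across 12413 genes.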

Additional observations from a re-analysis of the deposited data

Results flagged for a closer look

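In 112 combinations of a named gene and a group of 4 libraries, 10 (8.93%) held a library far from the other 3 by Dixon's ratio, where chance gives about 1 in 20. The 24.036 Mb gene had 34.6 CPM in microglia Ad-PPARg replicate 2 and 3.10 to 3.96 in the other 3 libraries. The 21.986 Mb gene had 319 CPM in OPC Ad-PPARg replicate 4, against 25.2 to 73.2. In the 23.785 Mb gene, microglia Ad-PPARg replicate 1 was high at 47.2 CPM (others 30.6 to 32.8). OPC Ad-PPARg replicate 1 was high in the 23.799 Mb gene at 125 CPM (others 79.6 to 83.2).

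The 22.669 Mb gene was high in microglia Ad-GFP replicate 4 at 33.8 CPM (others 21.5 to 22.7) and low in OPC Ad-GFP replicate 2 at 79.9 CPM (others 87.2 to 88.6). The 23.679 Mb gene was high in OPC Ad-GFP replicate 2 at 340.2 CPM (others 265 to 277). At levels of few counts, OPC Ad-GFP replicate 3 was high in the 23.519 Mb gene at 2.64 CPM (others 0.129 to 0.419) and in the 23.554 Mb gene at 0.819 CPM (others 0 to 0.127). In the latter OPC Ad-PPARg replicate 1 was low at 0.119 CPM (others 0.311 to 0.343). The causes were not tested.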

How the results depend on the processing

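For the 35 results of single genes, 699 alternative settings were run, and 689 kept direction and side of the threshold. The 23.497 Mb gene, near 0 between the sorts, turned to 0.16 under upper-quartile scaling. Without microglia Ad-GFP replicate 4 it was 0.012 (-0.080 to 0.012 without 1 library in turn). When only the Ad-GFP groups were contrasted, in the fit of all 16 libraries, it was 0.056. The 21.999 Mb gene's treatment difference in OPC turned to -0.11 without OPC Ad-PPARg replicate 4 (up to 1.19 without another library). Members called higher in OPC between the sorts were 25 under upper-quartile scaling and 12 to 17 without 1 library in turn, and those higher in microglia 31 to 32. DESeq2 called 1 of 81 members for treatment in microglia. Members at an unadjusted p under 0.05 were 2 to 18 in microglia (18 without Ad-GFP replicate 4, 2 without Ad-PPARg replicate 3), 0 to 4 in OPC (4 without Ad-PPARg replicate 4) and 0 to 6 for the difference of effects (6 without microglia Ad-GFP replicate 4) when 1 library was left out. Summed per identifier prefix they were 2 in microglia and 0 in OPC, and under upper-quartile scaling the difference of effects had 1. Shares of all genes without a library, summed per prefix or by DESeq2 are not given here. The counts of members in those settings are therefore not set against the genome. The median r of neighbours in microglia was 0.178 under upper-quartile scaling and 0.125 to 0.355 without 1 library. In OPC it was 0.312 under that scaling, 0.373 for members of at least 5 CPM and 0.0852 to 0.314 without 1 library. No genome value was worked out for these settings. The causes were not tested.

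With the animal as a replicate block, paired through the identifiers, the sorts gave 31 members higher in microglia and 16 higher in OPC. The difference of effects with the animal as a random block (limma voom) gave 0 members past the threshold and 2 at an unadjusted p under 0.05. For neither of these fits is the share of all genes given here. The sorts fit with the block kept only the 6 animals with both cell types. It therefore also left out, among others, microglia Ad-GFP replicate 1 and OPC Ad-PPARg replicate 4. That fit changed the call of the 22.748 Mb gene and of no other gene named for the sorts. Whether the block or the left-out libraries changed the call cannot be told apart.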
